A study of Mus musculus with 22 samples.

Results

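The 8 mature miRNAs here are listed products of the miR-17, miR-18 and miR-19 seed families, counted in RNA of isolated mouse round spermatids (RS). They come from the cluster that runs from miR-17 to miR-92a and from its paralogs. The list holds mmu-miR-17-5p, mmu-miR-20a-5p, mmu-miR-20b-5p, mmu-miR-93-5p and mmu-miR-106b-5p (miR-17 seed), mmu-miR-18a-5p (miR-18 seed), and mmu-miR-19a-3p and mmu-miR-19b-3p (miR-19 seed). They were taken by name from the table of mature miRNA counts, and 8 of 8 were found among its 1966 names. Between GRTH genotypes few were called at an edgeR adjusted p under 0.1, with 1 of 7 tested members in KO (41.9% of all names tested) and 0 of 7 in KI (38% of all names; 0 by DESeq2 and 1 at an unadjusted p under 0.05). Some alternative fits given below called miR-93-5p or miR-20a-5p in KI, and some called no member in KO. Between the WT samples of the 2 experimental batches 7 of 8 were called (56.7% of all names), and products of the same primary transcript lay on opposite sides, with miR-19a-3p higher and miR-18a-5p lower in the KI batch.

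RS are the haploid cells of the testis before they elongate into sperm. They were isolated from testes of mice 75 to 85 days old by enzymatic dispersion of the tubules and sedimentation through an albumin gradient. GRTH (DDX25) is an RNA helicase of male germ cells. KO mice lack it, and KI mice carry a changed GRTH and lack its phosphorylated form. Per the labels, WT (n = 5) and KO (n = 5) formed the KO batch, and WT (n = 6) and KI (n = 6) formed the KI batch. Neither the labels nor the methods state whether a sample came from 1 animal or from pooled animals, so the p-values below measure the spread between these samples. No source names a driver that limits either change to one cell type, so a difference in RS RNA cannot be assigned to RS alone. The table holds miRNAs, so the transcript of the targeted gene could not be used to check the labels.

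A miRNA finds its targets mainly by the seed, bases 2 to 8 of its mature sequence, and miRNAs with the same seed share many predicted targets. The miR-17 to miR-92a cluster is a polycistron, in which the products are cut from a common primary transcript, and it is known for promoting cell survival and proliferation. The miR-106b-25 cluster lies within the replication gene Mcm7, and the miR-106a-363 cluster lies on the X chromosome. In the testis the cluster on chromosome 14 and the one in Mcm7 are known mainly from spermatogonia and their differentiation.

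The mature sequences (RefSeq, GRCm38.p6) are shown because the 3 seeds define the families and the bases outside the seed are what tells the near-identical members apart. The seed is in capitals, and the sequences read 5′ to 3′.
miR-17-5p: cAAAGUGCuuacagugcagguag
miR-20a-5p: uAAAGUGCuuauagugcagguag
miR-20b-5p: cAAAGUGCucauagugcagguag
miR-93-5p: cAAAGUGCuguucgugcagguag
miR-106b-5p: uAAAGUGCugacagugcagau
miR-18a-5p: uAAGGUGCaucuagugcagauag
miR-19a-3p: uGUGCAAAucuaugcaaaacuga
miR-19b-3p: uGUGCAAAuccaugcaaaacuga

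With positions counted from 1 at the 5′ end, miR-19a-3p and miR-19b-3p differ by 1 base (U11C), miR-17-5p and miR-20a-5p by 2 (C1U and C12U), and miR-20a-5p and miR-20b-5p by 2 (U1C and U10C). The miR-18 seed differs from the miR-17 seed at position 4, and miR-18a-5p differs from miR-20a-5p at 4 positions in all (G4A, A9U, C11A and A20G). Outside the 8 members, the miR-17 seed was also held by miR-106a-5p, which differs from miR-17-5p by U10A, and by miR-6383. The miR-18 seed was also held by miR-18b-5p. The members span 34.8% G and C (miR-19a-3p) to 52.2% (miR-93-5p), and 7 of them are 23 bases long while miR-106b-5p has 21. Reads of near-identical members can be assigned to either name by an aligner that allows mismatches, so the split of counts between such members is uncertain.

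On GRCm38, 5 members lie on the plus strand of chromosome 14 in exons of the long noncoding host gene Mir17hg. In order along the transcript they are miR-17-5p (chr14:115043684-115043706), miR-18a-5p (chr14:115043867-115043889), miR-19a-3p (chr14:115044048-115044070), miR-20a-5p (chr14:115044183-115044205) and miR-19b-3p (chr14:115044358-115044380). miR-19b-3p has a further copy on the minus strand of the X chromosome (chrX:52741991-52742013), next to miR-20b-5p (chrX:52742159-52742181), where the annotation names no host gene. miR-106b-5p (chr5:138165787-138165807) lies in an intron of Mcm7, and miR-93-5p (chr5:138165574-138165596) lies in Mcm7 where only a retained-intron transcript has an exon, both on the minus strand. The copies of miR-19b-3p have the same mature sequence, so its counts cannot be divided between the chromosomes.

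Total counts ranged from 559957 to 1081333 in the KO batch and from 2067322 to 3239357 in the KI batch, so the KI batch was the deeper in every library. A count of 3, used here as the lower limit of detection, equals 0.926 CPM (counts normalised to library size) in the deepest library and 5.36 CPM in the shallowest, and this limit covers counting error only. The levels below are CPM scaled with the TMM factors of edgeR over all 22 libraries. The members together held 3.86% ± 0.167 (SD, n = 5) of all counts in WT of the KO batch, 3.81% ± 0.278 (SD, n = 5) in KO, 4.53% ± 0.238 (SD, n = 6) in WT of the KI batch and 4.77% ± 0.402 (SD, n = 6) in KI.

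The level of the members spanned more than 3 orders of magnitude. miR-19b-3p was the highest, with a mean of 25844 CPM over the 22 libraries, and ranked 6 among all names of the table. miR-93-5p (8670 CPM, rank 14), miR-20a-5p (5326 CPM, rank 28), miR-19a-3p (3317 CPM, rank 38), miR-18a-5p (533 CPM, rank 108) and miR-17-5p (99.3 CPM, rank 187) followed. This order held in 22 of 22 libraries for each neighbouring pair down to miR-17-5p, and miR-20a-5p exceeded miR-19a-3p by as little as 1.05 times in the library where they were closest. miR-20b-5p (8.59 CPM) and miR-106b-5p (7.26 CPM) were the lowest, and their order was not fixed, with miR-20b-5p the higher in 13 of 22 libraries. miR-20b-5p rested on 4 to 31 counts a library and miR-106b-5p on 5 to 21, so both were close to the limit of the depth in the KO batch. The miR-19b-3p level includes 2 loci. Its count was an even number in 8 of 22 libraries, so the reads were not all counted at both loci. Since 1 read can turn an even count odd, this cannot tell what share was counted at both. The level and rank of miR-19b-3p may therefore include reads counted at each locus.

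**Figure D1:**
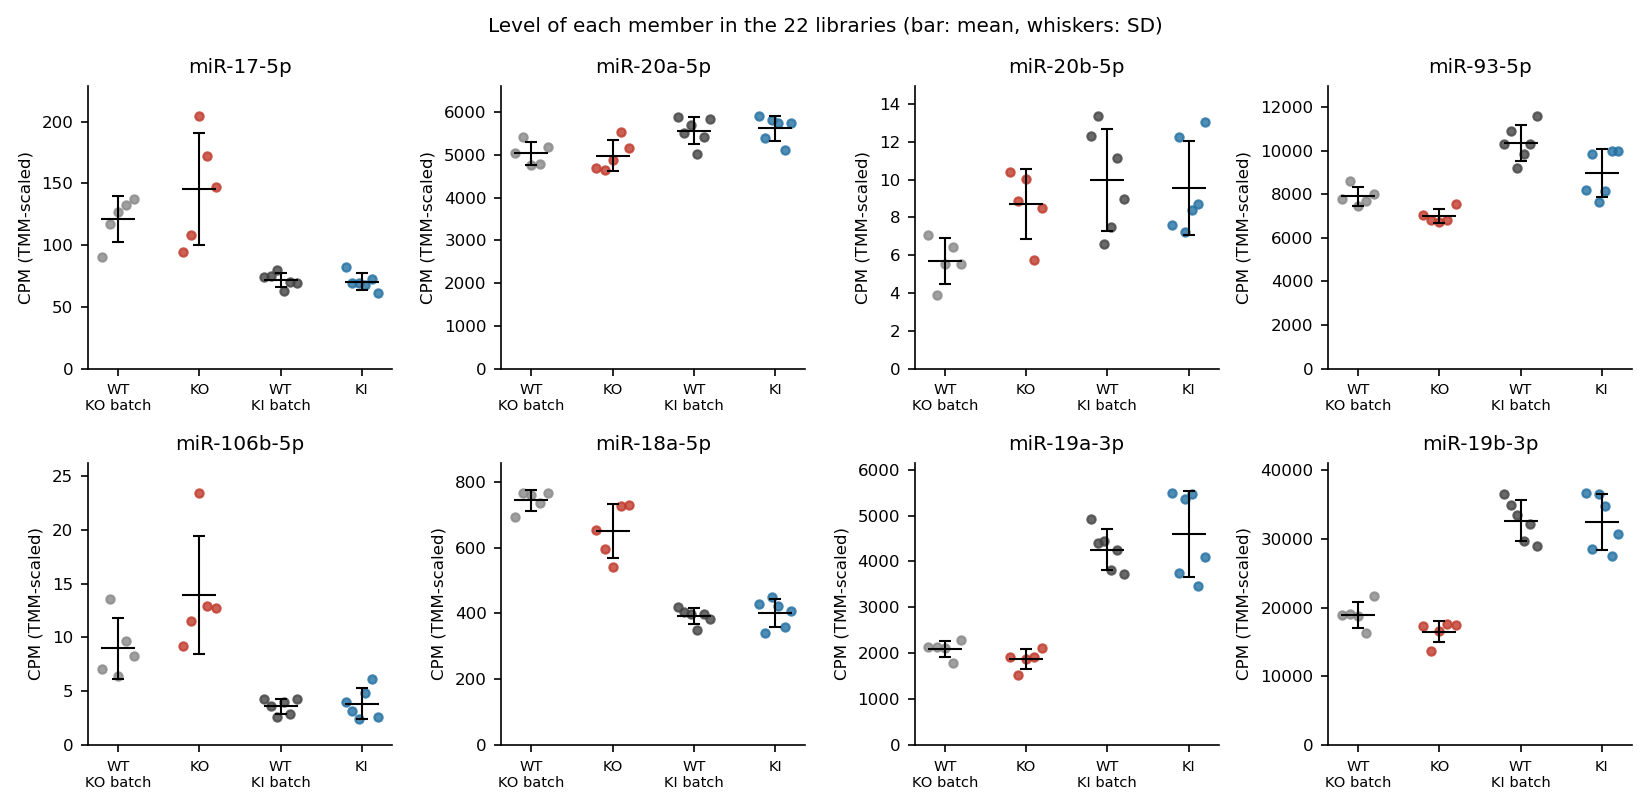
Level of each member in the 22 libraries. Each point is 1 library, the vertical axis is TMM-scaled CPM from 0, the bar is the mean and the whiskers are the SD of the 4 groups (n = 5, 5, 6 and 6). WT and mutant overlap in every panel, while miR-18a-5p, miR-17-5p and miR-106b-5p sit lower, and miR-19a-3p and miR-19b-3p higher, in both groups of the KI batch.

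KO was compared with WT of the same batch to ask how the loss of GRTH relates to the level of each member. Of the 7 members tested, 1 was called at an adjusted p under 0.1, beside 41.9% of all 334 names tested, and miR-20b-5p did not pass the filter on low counts. No member had groups that did not overlap, which was the case for 19.8% of all names tested. The median log2 fold change of the 7 members was -0.13, and that of all names tested was 0.01. Their median absolute log2 fold change was 0.17, and that of all names was 0.31.

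miR-93-5p, the most abundant miR-17 seed member, was the member called. Its levels were 7780, 8627, 7460, 7712 and 8003 CPM in the WT samples and 7078, 6809, 6735, 6836 and 7558 CPM in KO. The KO values lay at the lower end, and 1 KO library reached into the range of WT. By edgeR the log2 fold change was -0.15 ± 0.06 (SE; adjusted p = 0.0679), a percent change of -9.87% with a 95% interval from -17.4% to -1.60%. With library size in place of TMM the log2 fold change was -0.04 (adjusted p = 0.597), and the call was also lost with RLE scaling (adjusted p = 0.114), without the filter on low counts (adjusted p = 0.129) and without WT replicate 2 (adjusted p = 0.134).

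miR-20a-5p, likewise abundant, had 5043, 5413, 4770.4, 4787 and 5172 CPM in WT and 4699, 4649, 4878, 5533 and 5148 CPM in KO. The ranges lay over each other, with a log2 fold change of 0.01 ± 0.07 (adjusted p = 0.907) and a 95% interval from -9.09% to 11.8%. miR-17-5p had 90.1, 118, 127, 133 and 137 CPM in WT and 94.6, 108, 204, 172 and 147 CPM in KO. The KO values spread more widely than those of WT (SD 45.2 against 18.7 CPM), and the log2 fold change was 0.29 ± 0.21 (adjusted p = 0.296; 95% interval from -11.0% to 68.3%), or 0.11 without KO replicate 3 (adjusted p = 0.685). miR-106b-5p was at 7 to 14 counts in WT and 8 to 21 in KO, and its log2 fold change of 0.65 ± 0.31 did not pass the threshold (adjusted p = 0.125), except with library size in place of TMM (0.78, adjusted p = 0.0853) and without WT replicate 2 (0.84, adjusted p = 0.0707) or KO replicate 1 (0.78, adjusted p = 0.0827), and without KO replicate 3 the log2 fold change was 0.36 (adjusted p = 0.378). miR-20b-5p was at 4 to 8 counts in WT and 4 to 10 in KO.

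miR-18a-5p had 694, 767, 760.0, 735 and 765 CPM in WT and 654, 596, 542, 728 and 731 CPM in KO. The lowest KO libraries were below every WT library, and the log2 fold change was -0.17 ± 0.09 (adjusted p = 0.162; 95% interval from -22.5% to 1.89%). It was called without KO replicate 4 (-0.22, adjusted p = 0.0997) or 5 (-0.22, adjusted p = 0.0807). miR-19b-3p had 18934, 19079, 18777, 16277 and 21691 CPM in WT and 17346, 13768, 16561, 17561 and 17433 CPM in KO. Its log2 fold change was -0.17 ± 0.08 (adjusted p = 0.130; 95% interval from -21.4% to 0.687%), and KO replicate 2 lay apart at the low end. It was called without the filter on low counts (log2 fold change -0.23, adjusted p = 0.0679) and without WT replicate 4 (-0.22, adjusted p = 0.0615). miR-19a-3p had 1791 to 2291 CPM in WT and 1517 to 2120 CPM in KO, and its log2 fold change was -0.13 ± 0.09 (adjusted p = 0.270; 95% interval from -20.8% to 4.77%). Without KO replicate 2 the log2 fold change was -0.11 for miR-19b-3p (adjusted p = 0.250) and -0.07 for miR-19a-3p (adjusted p = 0.549). The scaling bears on these small values: with library size in place of TMM the median of all names in KO moved from 0.01 to 0.13, and that of WT between batches from -0.01 to -0.34.

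KI was compared with WT of the KI batch to ask the same of the changed GRTH. None of the 7 members tested was called by edgeR, beside 38% of all 387 names tested. DESeq2 also called 0, and 1 member (miR-93-5p) had an unadjusted p under 0.05. miR-106b-5p did not pass the filter on low counts. No member had groups that did not overlap, which was the case for 12.4% of all names tested. The median absolute log2 fold change was 0.04 in the 7 members and 0.25 in all names tested.

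miR-93-5p had 9200, 10302 and 11595 CPM as the lowest, median and highest value in WT, and 7655, 9049 and 10018 CPM in KI. The KI values reached lower than those of WT, and the ranges overlapped. By edgeR it differed by -0.18 ± 0.08 on the log2 scale (adjusted p = 0.109), a percent change of -11.7% with a 95% interval from -21.7% to -0.447%. In a fit of all 4 groups the same difference was called (log2 fold change -0.21, adjusted p = 0.0341), and it was also called without WT replicate 3 (adjusted p = 0.0922) and without KI replicate 2, 5 or 6 (adjusted p = 0.057, 0.0996 and 0.0944). Without KI replicate 1 it was -0.10 (adjusted p = 0.418).

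For miR-20a-5p the 95% interval of the KI difference ran from -4.73% to 10.02% around a log2 fold change of 0.03 ± 0.05 (adjusted p = 0.614). It ran from -9.52% to 12.2% for miR-19b-3p (0.01 ± 0.07, adjusted p = 0.918), from -7.43% to 16.3% for miR-18a-5p (0.05 ± 0.08, adjusted p = 0.617), from -13.1% to 13.6% for miR-17-5p (-0.01 ± 0.09, adjusted p = 0.941), from -7.18% to 29.3% for miR-19a-3p (0.13 ± 0.11, adjusted p = 0.396) and from -29.4% to 33.6% for miR-20b-5p (-0.04 ± 0.21, adjusted p = 0.902). The signs of miR-17-5p and miR-20b-5p turned with library size in place of TMM.

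The KI libraries were not evenly spread. In replicates 1 to 6 miR-19a-3p was at 5496, 3747, 5356, 5465, 3467 and 4106 CPM, and miR-93-5p was at 8215, 9883, 7655, 8161, 10015 and 10018 CPM. Replicates 1, 3 and 4 had the higher miR-19a-3p and the lower miR-93-5p values, and replicates 2, 5 and 6 the reverse. Replicates 1, 3 and 4 were also the deeper KI libraries, at 2597168 to 3101145 counts against 2107461 to 2365676. A part of depth in this split was not tested. The 6 WT libraries of the batch lay between 3728 and 4922 CPM for miR-19a-3p.

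The KO effect and the KI effect were compared directly in a fit of all 4 groups. No member was called, and neither was any of the 421 names tested (0%) by edgeR or by DESeq2. At an unadjusted p under 0.05 there were 67 names and 0 members. The largest differences of the effects were those of the low members miR-20b-5p (0.68 ± 0.36 on the log2 scale, adjusted p = 0.373) and miR-106b-5p (0.53 ± 0.41, adjusted p = 0.548). For miR-93-5p, which had a negative value in both mutants, the difference of the effects was 0.03 ± 0.11 (adjusted p = 0.934), with a 95% interval from -0.19 to 0.25.

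**Figure D2:**
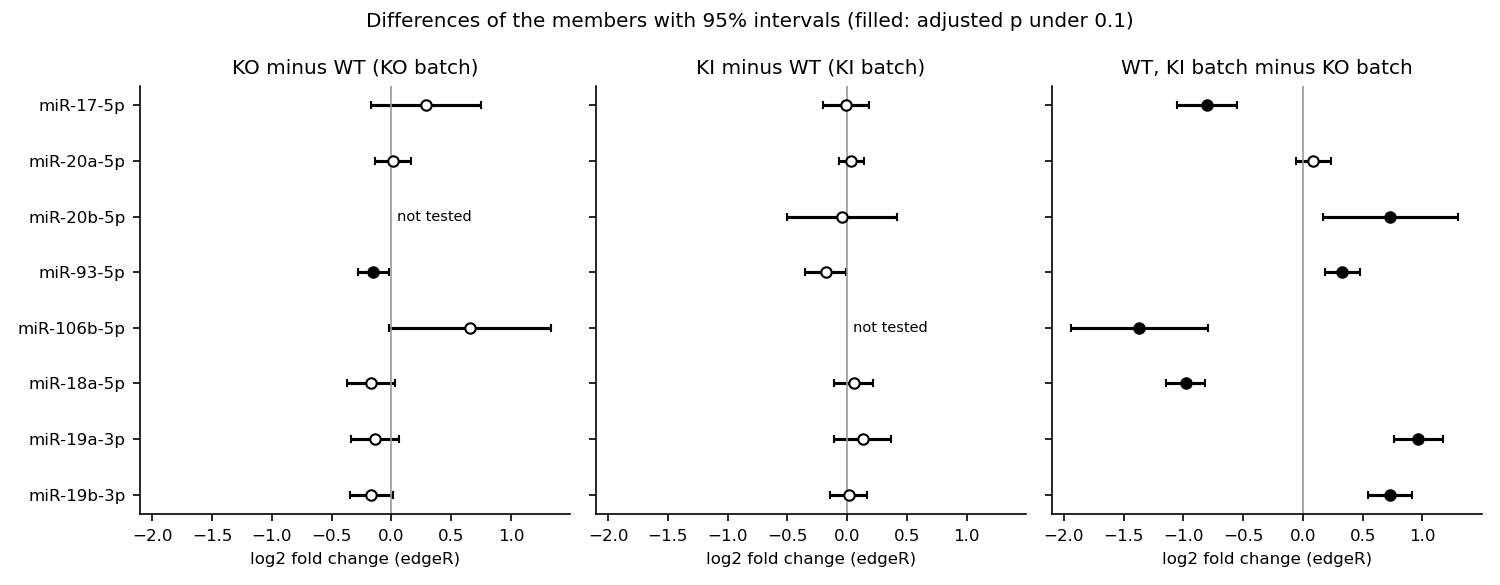
Log2 fold change of each member in KO minus WT, KI minus WT, and WT of the KI batch minus WT of the KO batch, from edgeR with TMM scaling. Points are estimates, lines are 95% intervals, and filled points have an adjusted p under 0.1. In the first 2 panels the filled point is miR-93-5p in KO, and in the third 7 of 8 are filled, from -1.37 (miR-106b-5p) to 0.97 (miR-19a-3p).

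WT samples of the 2 batches carry the same genotype label, and their comparison shows how far each member varied between experiments. Of the 8 members 7 were called, beside 56.7% of all 383 names tested. In the KI batch 4 were higher (26.9% of all names were called higher) and 3 were lower (29.8% of all names were called lower). With library size in place of TMM 2 members were higher and 4 lower, and the calls over all names went from 103 higher and 114 lower to 47 higher and 193 lower. The groups did not overlap for 6 members, beside 37.9% of all names. The median absolute log2 fold change was 0.77 in the members and 0.40 in all names tested. The batch, the depth, the animals and the time of the experiment cannot be told apart here.

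miR-19a-3p rose from 2126, 2140.0, 2105, 1791 and 2291 CPM in WT of the KO batch to a lowest, median and highest value of 3728, 4323 and 4922 CPM in WT of the KI batch. The groups were far apart, and the edgeR log2 fold change was 0.97 ± 0.10 (adjusted p = 8.07e-07). miR-19b-3p was at 29019, 32871 and 36588 CPM in WT of the KI batch, above the highest of the KO batch (21691 CPM), with a log2 fold change of 0.73 ± 0.09 (adjusted p = 6.73e-06). The mutants followed their batch: over all 22 libraries miR-19a-3p was at 1517 to 2291 CPM in the KO batch and 3467 to 5496 CPM in the KI batch, and miR-19b-3p at 13768 to 21691 and 27535 to 36753 CPM.

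miR-18a-5p went the other way. It was at 694 to 767 CPM in WT of the KO batch and at 349, 398 and 419 CPM (lowest, median and highest) in WT of the KI batch, a log2 fold change of -0.98 ± 0.08 (adjusted p = 7.13e-08). Over all 22 libraries its lowest value in the KO batch was 542 CPM and its highest in the KI batch was 451 CPM. miR-17-5p also fell, from 90.1 to 137 CPM in the KO batch to 62.9, 72.3 and 79.9 CPM in the KI batch, with a log2 fold change of -0.80 ± 0.12 (adjusted p = 3.76e-05). miR-106b-5p fell by 1.37 ± 0.27 on the log2 scale (adjusted p = 0.000534), from 7 to 14 counts in the shallower libraries to 6 to 10 counts in the deeper ones.

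The abundant miR-17 seed members moved less. miR-93-5p was higher in the KI batch by 0.33 ± 0.07 on the log2 scale (adjusted p = 0.000816), and the WT groups did not overlap, since the highest of the KO batch was 8627 CPM and the lowest of the KI batch 9200 CPM. miR-20a-5p had a log2 fold change of 0.09 ± 0.07 (adjusted p = 0.322; 95% interval from -4.05% to 17.4%). miR-20b-5p rose by 0.73 ± 0.26 (adjusted p = 0.0302) from 4 to 8 counts to 15 to 31 counts, with overlapping CPM. With library size in place of TMM, miR-20a-5p was called lower (log2 fold change -0.24, adjusted p = 0.000723), and the calls of miR-93-5p (0.00, adjusted p = 0.973) and miR-20b-5p (0.39, adjusted p = 0.221) were lost. The directions of miR-17-5p, miR-18a-5p, miR-19a-3p, miR-19b-3p and miR-106b-5p held under every scaling tried, but with library size the log2 fold changes of miR-19a-3p and miR-19b-3p were smaller, at 0.64 and 0.40 (adjusted p = 5.18e-06 and 9.39e-05).

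**Figure D3:**
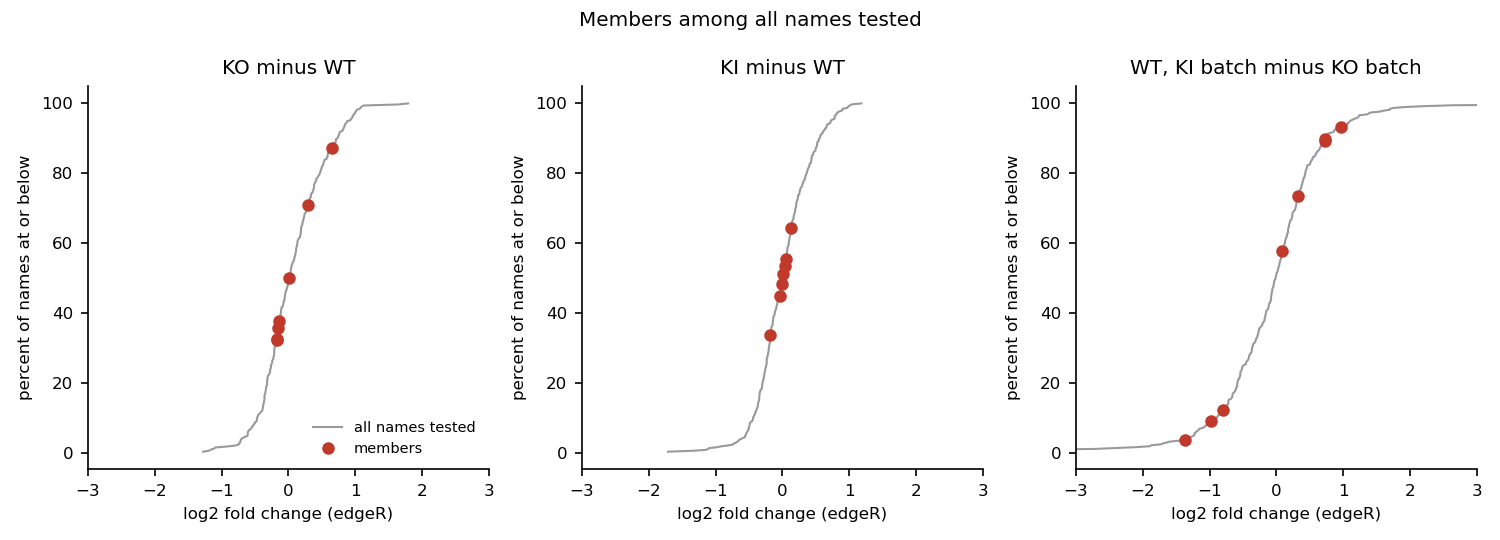
Members (points) on the cumulative distribution of the log2 fold changes of all names tested (line; 334, 387 and 383 names; 3 comparisons). The horizontal axis is the log2 fold change from edgeR, cut at 3 in either direction, and the vertical axis is the percent of names at or below it. In KO and KI most members lie in the steep middle, and between the WT groups they are spread over both flanks.

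Ratios between members within a library involve no scaling. The ratio of miR-19a-3p to miR-18a-5p, which lie next to each other on the chromosome 14 transcript, was 2.44, 2.79 and 3.07 (lowest, median and highest) in WT of the KO batch and 2.55, 2.90 and 3.45 in KO. It was 9.69, 10.9 and 11.8 in WT of the KI batch and 9.68, 11.4 and 12.9 in KI. The 10 libraries of the KO batch and the 12 of the KI batch did not overlap, and within a batch the genotypes did. The ratio of miR-18a-5p to miR-20a-5p was 0.138 to 0.159 in WT of the KO batch and 0.0658 to 0.0736 in WT of the KI batch, and that of miR-17-5p to miR-20a-5p was 0.0179 to 0.0278 and 0.0118 to 0.0141. Both were lower in all libraries of the KI batch than in any of the KO batch. The ratio of miR-93-5p to miR-20a-5p separated the genotypes of the KO batch: it was 1.54 to 1.61 in WT and 1.24 to 1.51 in KO, with no overlap. In the KI batch it was 1.62 to 1.98 in WT and 1.32 to 1.96 in KI, with overlap. These ratios were chosen after the values were seen and were not tested.

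The ratio of miR-19a-3p to miR-19b-3p moved less, from 0.106 to 0.112 in WT of the KO batch to 0.126 to 0.135 in WT of the KI batch, and the batches did not overlap here either. In KO it was 0.109 to 0.122 and in KI 0.126 to 0.157. The ratio of miR-93-5p to miR-25-3p, its neighbour in Mcm7, was at a median of 0.995 (highest 1.02) in WT of the KO batch and 1.06 to 1.21 in WT of the KI batch, and the batches overlapped once the mutants (medians of 0.981 in KO and 1.06 in KI) were included.

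**Figure D4:**
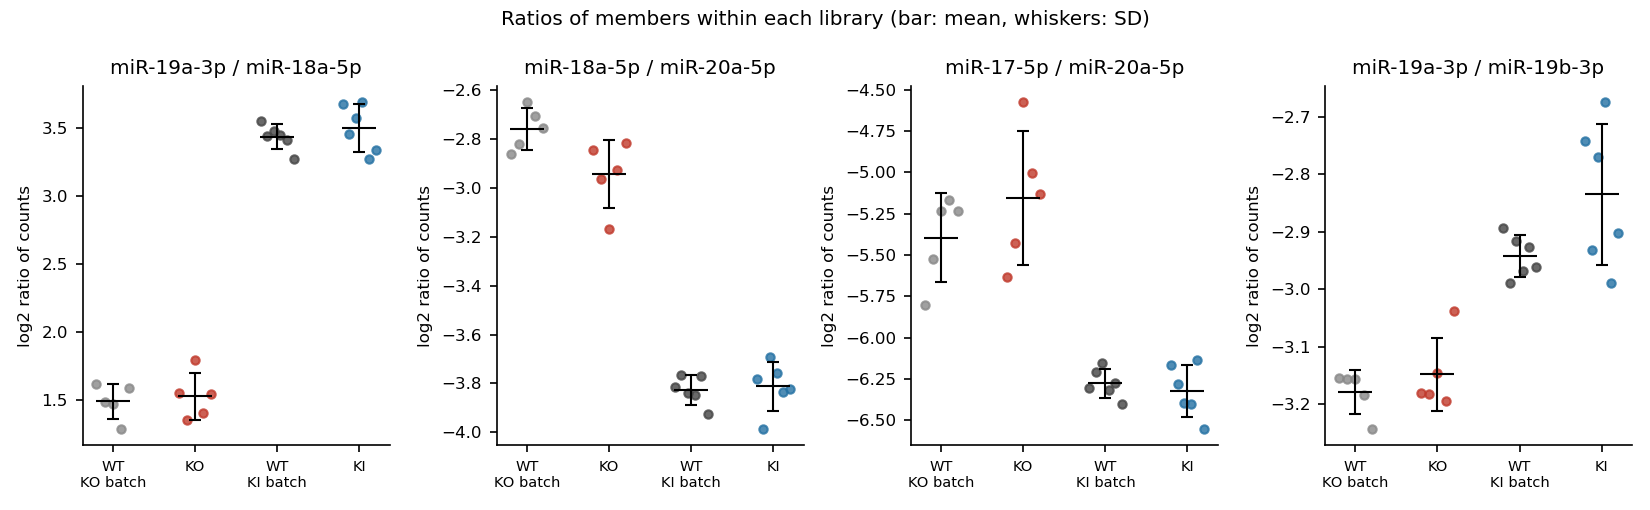
Log2 ratio of counts of pairs of members within each library, by group (points: libraries; bar: mean; whiskers: SD; n = 5, 5, 6 and 6). The mean log2 ratio of miR-19a-3p to miR-18a-5p was 1.49 in WT and 1.52 in KO of the KO batch, and 3.44 in WT and 3.50 in KI of the KI batch. In each panel the libraries of the batches do not overlap; the vertical axes do not start at 0.

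Each hairpin gives a 5p and a 3p product, and the arm that enters the silencing complex usually prevails. miR-18a-5p, miR-19a-3p, miR-20a-5p and miR-93-5p held over 95% of their hairpin's counts in every library, and miR-20b-5p had 327 counts over all libraries beside 6 of miR-20b-3p. The exceptions were miR-17-5p and miR-106b-5p. Both sequences are close to that of the abundant miR-20a-5p, which differs from miR-17-5p by 2 bases and from miR-106b-5p by 3. The rare miR-106a-5p, at 13 counts over all libraries, differs from miR-17-5p by 1 base. Such closeness is not particular to the exceptions, since miR-19a-3p differs from miR-19b-3p by 1 base. Arm use and the assignment of such reads cannot be told apart in these shares. miR-17-5p held 41.2% to 52.7% of its hairpin's counts in WT of the KO batch, 43.2% to 63.3% in KO, 22.3% to 28.4% in WT of the KI batch and 23.4% to 33.7% in KI. It exceeded miR-17-3p in 5 of 22 libraries, all of the KO batch. The arms moved in opposite directions between the WT groups, since miR-17-3p rose by 0.64 ± 0.10 on the log2 scale (edgeR adjusted p = 8.05e-05) while miR-17-5p fell by 0.80.

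miR-106b-5p held 3.27% to 5.58% of its hairpin's counts in WT of the KO batch, 3.94% to 11.7% in KO, 1.43% to 2.08% in WT of the KI batch and 1.02% to 2.50% in KI, and was below miR-106b-3p in 22 of 22 libraries. miR-106b-3p itself had a log2 fold change of 0.03 ± 0.13 between the WT groups (adjusted p = 0.845). For miR-18a, the minor arm had a log2 fold change of 0.08 ± 0.28 (adjusted p = 0.841) at a mean of 8.36 CPM, beside the fall of 0.98 in miR-18a-5p. The 3 members that fell between the batches therefore each had an opposite arm that did not fall past the threshold. For miR-18a-3p the 95% interval was wide, from -0.53 to 0.68 on the log2 scale. Members that rose could also have an uncalled opposite arm. These were miR-93-3p (0.14, edgeR adjusted p = 0.508) beside miR-93-5p, and miR-19b-1-5p (-0.15, adjusted p = 0.649) beside miR-19b-3p.

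**Figure D5:**
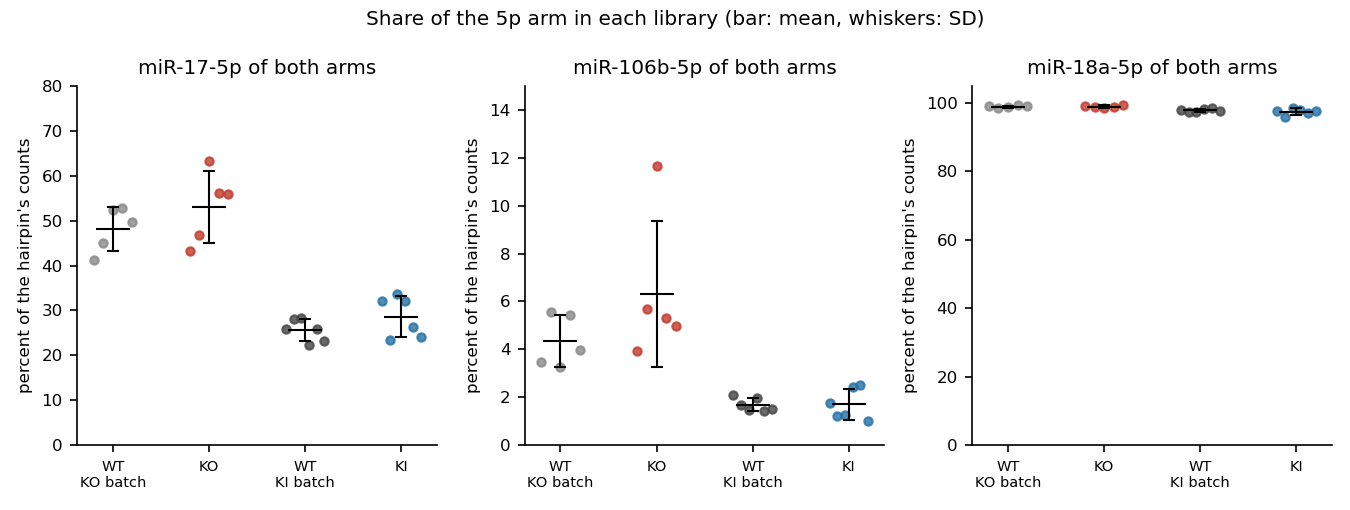
Percent of a hairpin's counts held by the 5p arm in each library, by group (points: libraries; bar: mean; whiskers: SD; n = 5, 5, 6 and 6). The mean share of miR-17-5p was 48.2% and 53.0% in WT and KO of the KO batch and 25.6% and 28.6% in WT and KI of the KI batch, that of miR-106b-5p was 4.35%, 6.32%, 1.69% and 1.70%, and that of miR-18a-5p stayed above 95% in every library.

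The other 20 products of the same clusters were read from a fixed list. In KO 9 of them were tested and 1 was called (41.9% of all names were), a rise of miR-92a-1-5p (0.62 ± 0.22 on the log2 scale, edgeR adjusted p = 0.0469), which had 24.3, 22.3, 19.4, 26.6 and 15.7 CPM in WT and 21.9, 31.9, 40.2, 38.7 and 31.1 CPM in KO. Its partner arm miR-92a-3p, an abundant product of both the chromosome 14 and the X cluster, had a log2 fold change of -0.01 ± 0.08 (adjusted p = 0.907). In KI 10 were tested and 1 was called (38% of all names were), a fall of miR-25-3p, the abundant product of the Mcm7 cluster beside miR-93-5p. Its lowest, median and highest values were 8479, 9485 and 10306 CPM in WT and 7759, 8115 and 9394 CPM in KI, and it fell by 0.17 ± 0.05 on the log2 scale (adjusted p = 0.0300). In KO miR-25-3p had a log2 fold change of -0.19 ± 0.09 (adjusted p = 0.137), so both abundant products of this cluster had negative values in both mutants, 1 of them called in each. The less abundant products did not share a direction. miR-106b-3p had positive values (0.14 in KO and 0.12 in KI), miR-25-5p negative ones (-0.21 and -0.30), and miR-93-3p had 0.02 and -0.23. miR-106b-5p had 0.65 in KO and was not tested in KI. None of these less abundant products was called.

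Between the WT groups 10 of the other products were tested and 3 were called (56.7% of all names were), miR-17-3p and miR-25-3p (0.19 ± 0.07, adjusted p = 0.0291) higher and miR-25-5p (-0.58 ± 0.25, adjusted p = 0.0614) lower in the KI batch. miR-92a-3p, at the end of the chromosome 14 transcript, had a log2 fold change of 0.08 ± 0.09 (adjusted p = 0.512), close to that of miR-20a-5p. Of the other products with a mean of at least 10 CPM, miR-93-3p and miR-20a-3p were called in none of the 3 comparisons, and neither was miR-106b-3p. The products that are made from the X cluster alone were rare: over all libraries miR-106a-5p had 13 counts, miR-18b-5p 136, miR-20b-5p 327, miR-363-3p 24 and miR-363-5p 34, while miR-106a-3p, miR-19b-2-5p and miR-92a-2-5p had 0. The minor arm of the chromosome 14 copy of miR-19b, miR-19b-1-5p, had 334 counts.

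Summed by seed, the miR-19 group held 2.33% ± 0.178 (SD, n = 5) of all counts in WT of the KO batch, 2.24% ± 0.204 (SD, n = 5) in KO, 3.14% ± 0.266 (SD, n = 6) in WT of the KI batch and 3.39% ± 0.463 (SD, n = 6) in KI. The miR-17 group held 1.45% ± 0.0466, 1.48% ± 0.0993, 1.36% ± 0.0504 and 1.34% ± 0.0825 in the same order, and the miR-18 group 0.0825% ± 0.00269, 0.0791% ± 0.00773, 0.0333% ± 0.00186 and 0.0367% ± 0.00380. Within a batch the genotypes overlapped for each group. On the TMM scale the miR-17 group summed to 13089 ± 703 CPM in WT and 12152 ± 540.4 CPM in KO of the KO batch, and 16015 ± 987 CPM in WT and 14692 ± 902 CPM in KI of the KI batch (SD, n = 5 and 6 libraries a group). On that scale its mean was higher in the KI batch and lower in KO than in WT, both opposite to the shares of counts, while KI was below WT on both scales. With each count divided by the number of loci of its name, the miR-19 share over all libraries went from 2.82% to 2.07% and the miR-17 share from 1.40% to 1.86%. miR-93-5p and miR-20a-5p together made up nearly all of the miR-17 group, with means of 60.5% and 38.5% in WT of the KO batch, 57.7% and 41.0% in KO, 64.7% and 34.8% in WT of the KI batch and 61.0% and 38.4% in KI. The share of miR-93-5p was 60.1% to 61.0% in WT and 54.4% to 59.5% in KO, with no overlap, and 61.4% to 66.2% in WT and 56.5% to 65.8% in KI. Since miR-93-5p and miR-20a-5p make up nearly all of the group, this share largely restates their ratio given above and is no separate observation.

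The 3 names most like each seed group were sought among 316 names with a mean of at least 10 CPM, by Pearson's r of log2 CPM centred on the batch mean over the 22 libraries. Names within a library share its depth and preparation. The miR-18 group was most like miR-30b-5p (r = 0.877), miR-30c-5p (r = 0.840) and miR-29b-3p (r = 0.808). The miR-19 group was most like miR-34b-5p (r = 0.797), an abundant miRNA of meiotic and haploid germ cells, miR-30b-5p (r = 0.753) and miR-883b-3p (r = 0.741). The miR-17 group was most like miR-146b-5p (r = 0.807), miR-743a-3p (r = 0.790) and miR-7223-3p (r = 0.778). Among the members themselves r was 0.924 for miR-19a-3p with miR-19b-3p, 0.734 for miR-18a-5p with miR-19a-3p, 0.614 for miR-19a-3p with miR-20a-5p and -0.343 for miR-19a-3p with miR-93-5p.

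Markers were read as summed CPM and were not tested as sums, and no listed marker was at 0 in every library. Those of RS and late meiotic cells (miR-34c-5p, miR-34b-5p and miR-449a-5p) were at 185957 to 226744 CPM in WT of the KO batch, 159662 to 215133 in KO, 357630 to 411481 in WT of the KI batch and 330631 to 378661 in KI, and their sum was higher in the KI batch, as the miR-19 members were. Of these, miR-34c-5p and miR-34b-5p were called higher between the WT groups (log2 fold changes of 0.91 and 1.02), and miR-449a-5p was not (-0.10, edgeR adjusted p = 0.256). The 6 blood markers were at 3734 to 4766, 4039 to 5614, 2515 to 3402 and 3165 to 5196 CPM in the same order, and the 5 vascular and stromal markers at 634 to 1700, 1575 to 3207, 1154 to 1928 and 1763 to 3794 CPM. The 4 spermatogonia-linked miRNAs were at 2353 to 2786, 2133 to 3375, 6199 to 7233 and 6104 to 8154 CPM, and the 2 muscle miRNAs at 8.10 to 29.5, 11.5 to 147, 42.5 to 758 and 38.1 to 523 CPM. Of the spermatogonia-linked miRNAs, miR-21a-5p was called higher between the WT groups (edgeR log2 fold change 1.41, adjusted p = 7.23e-09). Neither miR-146a-5p (-0.08, adjusted p = 0.798) nor miR-221-3p (0.39, adjusted p = 0.169) was called there. Singly, miR-143-3p, miR-145a-5p and miR-199a-3p (vascular and stromal), miR-150-5p and miR-223-3p (blood) and miR-146a-5p (spermatogonia-linked) were called higher in both mutants. Their log2 fold changes ran from 0.57 (miR-145a-5p) to 1.64 (miR-150-5p) in KO and from 0.52 (miR-145a-5p) to 0.97 (miR-223-3p) in KI. Of the same lists, miR-126a-3p (0.38 in KO and -0.04 in KI), miR-451a (-0.25 and 0.11) and miR-21a-5p (-0.12 and 0.10) were called in neither. miR-221-3p (0.95) and the muscle miRNA miR-1a-3p (1.8) were called higher in KO only, and miR-142a-3p (0.52) in KI only. miR-144-3p, miR-486a-5p, miR-126a-5p and miR-222-3p were not tested. miR-34c-5p was called lower in both, by a log2 fold change of -0.21 in KO (adjusted p = 0.0809) and -0.11 in KI (adjusted p = 0.0271), and miR-34b-5p in KO (-0.27, adjusted p = 0.0643), beside -0.15 and -0.18 for miR-93-5p in KO and KI. miR-34b-5p was not called in KI (-0.12, adjusted p = 0.271). The remaining RS marker, miR-449a-5p, was called in neither mutant (-0.0047 in KO, adjusted p = 0.955, and 0.037 in KI, adjusted p = 0.569). The part of other cell types in the differences of the members was not tested, and fewer cells of a type and less RNA per cell cannot be told apart in such samples.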

How the data were processed

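Small RNA of isolated RS was sequenced in 22 samples. Per the file headers and the study's methods, the authors trimmed adapters with cutadapt 3.4 and kept reads of at least 15 bases. They aligned them to GRCm38 (mm10) with Bowtie2 2.4.2 in a sensitive local mode that reports up to 100 alignments per read, and counted them on miRBase mature names with featureCounts (Subread 2.0.1), strand-specific and with no option for multi-mapped reads in the command. The deposited values are raw counts per name and library, and every sample column was used (0 others).

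The test was edgeR's quasi-likelihood F-test (edgeR 4.0.16, R 4.3.3) on these counts, with TMM scaling, filterByExpr and Benjamini-Hochberg adjustment over all names tested. A name was called at an adjusted p under 0.1, as in the study's DESeq2 analysis. KO and KI were each fitted with the WT of their batch, and the comparison of WT between batches and that of the effects had fits of their own. Intervals are 95% intervals on the degrees of freedom of the test. The lowest chi-square per degree of freedom of a replicate pair was 7.28, so no library was held to be entered more than once. The fits were tested on simulated data.

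Every member is named. Of 20 cluster products, those with a mean of at least 10 CPM are named, with rarer ones of the X cluster added after their counts were seen. The ratios and arm shares were also chosen after the values were seen. Likeness used log2(CPM + 1). The members and lists were chosen with earlier results of these data known. Alternatives were DESeq2 1.42.0, library size only, RLE scaling, no filter, a replicate block, leaving out each library, a fit of all groups, and division by loci. Sequences came from RefSeq (1675 of 1966 names matched) and host genes from GENCODE vM21. Python 3.11.15 was used with numpy 2.4.6, pandas 2.3.3, scipy 1.17.1 and matplotlib 3.10.9.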

Additional observations from a re-analysis of the deposited data

Results flagged for a closer look

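In KO, miR-19b-3p of replicate 2 was at 13768 CPM, while the other 4 KO libraries were at 16561 to 17561 CPM. On the log scale of CPM, its gap to the nearest library was 0.759 of the group's range, above Dixon's critical value of 0.71 for 5 samples. Of the 32 combinations of member and group that were screened, this was the 1 flagged, and chance alone gives about 1 in 20, or 1.6.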

How the results depend on the processing

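The members called in KO (1) became 0 with RLE scaling and with a replicate block, and 1 to 2 when each library was left out in turn. It stayed at 1 with library size only and with no filter, where the member called was miR-106b-5p in the former and miR-19b-3p in the latter in place of miR-93-5p. The members called in KI (0) became 1 with library size only (miR-20a-5p, log2 fold change 0.12, adjusted p = 0.0969), with the fit of all 4 groups and with a replicate block (both miR-93-5p), and 0 to 1 with each library left out. Between the WT groups 6 to 7 were called under every alternative, and for the difference of the effects 0. By the rule used, same-numbered samples deviated together in neither batch, with 2 of 5 and 3 of 6 pairs correlated above 0.1. Their correlations were -0.112 to 0.177 over 5 pairs in the KO batch and -0.109 to 0.519 over 6 pairs in the KI batch. The best match had the same number in 1 of 5 and 3 of 6. The mean correlation was 0.0244 against -0.00594 for other pairs in the KO batch, and 0.189 against -0.0341 in the KI batch. Whether same-numbered samples of the KI batch share more than a number was therefore not settled. With the replicate block miR-93-5p had -0.15 (adjusted p = 0.162) in KO and -0.19 (adjusted p = 0.0163) in KI, the block changed no other call of a member, and it called 124 names in KO, 165 in KI and 25 for the difference of the effects. Without KI replicate 2 that last count was 26.

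Signs turned among small, uncalled log2 fold changes. In KO miR-20a-5p went from 0.01 to -0.046 with no filter, to -0.016 in the fit of all 4 groups, and ranged from -0.034 to 0.039 with a library left out. In KI miR-17-5p went to 0.076 with library size only and 0.0067 with RLE, ranging from -0.023 to 0.034 with a library left out, miR-20b-5p to 0.045 with library size only, ranging from -0.14 to 0.071, and miR-19b-3p to -0.0083 in the fit of all 4 groups, ranging from -0.033 to 0.060. Between the WT groups miR-20a-5p went to -0.24 with library size only. For the difference of the effects miR-20a-5p went to 0.0057 with library size only, ranging from -0.16 to 0.011, and miR-93-5p to -0.029 with DESeq2, -0.030 with RLE and -0.057 with no filter, ranging from -0.12 to 0.074. Division by loci moved the miR-17 share to 1.86% and the miR-19 share to 2.07% of all counts, by the construction of that measure. Apart from that, the cause of these changes was not tested. Low counts limit miR-20b-5p and miR-106b-5p, which did not pass the filter in KO and in KI, respectively.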
